A study of Mus musculus with 12 samples.

Results

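Domains of accessible chromatin that were listed in iHoxc9 neurons and not in iHoxc10 neurons, or the reverse, were compared with each other. A domain was called line-specific when it was at least 150 bp wide, lay on chromosomes 1 to 19, X or Y, and shared no base with any domain of the other list. By this rule 4053 of 31062 domains of the iHoxc9 list were iHoxc9-specific and 5310 of 33814 domains of the iHoxc10 list were iHoxc10-specific, together 9363 domains in a series whose lists held 482514. The rule fixes that the classes differ in overlap with each other. It does not use the other lists of the series, gene positions or DNA sequence, and these were compared.

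Chromatin accessibility was measured by ATAC-seq, in which a transposase cuts open DNA, in mouse embryonic stem cells grown as embryoid bodies (EBs) and driven with 1 µM retinoic acid (RA) and 0.5 µM SAG, an agonist of Hedgehog signalling, into cultures of motor neurons and interneurons. The iHoxc9 and iHoxc10 neurons came from the lines Ainv15(iFlag.Hoxc9) and Ainv15(iFlag.Hoxc10), each with 1 copy of a Flag-tagged Hox transgene at the HPRT locus, and were given doxycycline (Dox) at 3 µg/mL during the 48 h up to day 4. The 4 lists used for comparison came from EBs and day 2 progenitors of the parental line Ainv15(iCre), which has no Hox transgene, from day 4 neurons of the iHoxc6 line with Dox, and from day 4 neurons of the iHoxc6 line without Dox (no Dox). There were 12 samples, 2 in each of the 6 groups and from separate differentiations, and 1 deposited list per group made from both. The values therefore have no replicate error, no difference could be set against the spread between replicates, and read depth is unknown. Intervals are 95% intervals for the counting of domains (Wilson for shares, Newcombe for unweighted differences), and neighbouring domains are not independent. Each factor was expressed in 1 line, so factor and line cannot be told apart.

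Hox genes encode homeodomain transcription factors that are deployed along the head-to-tail axis and assign segmental identities to spinal motor neurons. Hoxc9 is known for thoracic and Hoxc10 for lumbar identity, and both belong to the posterior Hox groups, whose proteins bind AT-rich strings with an ATAAA core. Central and anterior Hox proteins prefer strings with a TAAT core, and TALE proteins of the Pbx, Meis and Prep families bind DNA beside Hox proteins.

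Sites with the most posterior Hox matches show what the strings look like in each class. The posterior consensus was read on both strands as NNATAAA in which each N is A, C or T, so it comprises 9 heptamers. Each sequence is the central 200 bp of a domain, plus strand of GRCm38, with consensus matches in capitals. A match on the minus strand therefore reads as its reverse complement, and matches that overlap run together. The sites were picked for their number of matches among domains absent from the progenitor and no Dox lists, so they illustrate the class and are no measure of it. The first iHoxc9-specific site held 7 matches in intergenic DNA 27.4 kb from the transcription start site (TSS) of Gbp5. The second held 6 matches 160 kb from 3110018I06Rik, and the third 6 matches 189 kb from Efhc2.
iHoxc9-specific site 1, chr3:142466476-142466675: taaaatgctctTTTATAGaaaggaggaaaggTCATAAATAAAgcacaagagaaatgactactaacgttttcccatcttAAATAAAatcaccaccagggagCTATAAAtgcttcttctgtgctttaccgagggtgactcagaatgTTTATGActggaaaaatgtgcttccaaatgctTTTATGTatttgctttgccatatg
iHoxc9-specific site 2, chr12:107648105-107648304: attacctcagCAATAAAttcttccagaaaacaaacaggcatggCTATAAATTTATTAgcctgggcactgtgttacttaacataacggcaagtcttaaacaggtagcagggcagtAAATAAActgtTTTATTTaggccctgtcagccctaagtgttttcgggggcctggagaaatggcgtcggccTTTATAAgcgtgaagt
iHoxc9-specific site 3, chrX:17130340-17130539: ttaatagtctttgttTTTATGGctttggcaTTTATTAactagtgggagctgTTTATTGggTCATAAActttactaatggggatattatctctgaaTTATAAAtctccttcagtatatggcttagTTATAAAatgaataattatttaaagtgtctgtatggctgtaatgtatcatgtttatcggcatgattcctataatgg

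The iHoxc10-specific sites shown held 5 and 4 matches. The first lay in an intron, with the nearest protein-coding TSS, that of Rpl10l, at 332 kb. The second was intergenic, 125 kb from Etl4.
iHoxc10-specific site 1, chr12:66615846-66616045: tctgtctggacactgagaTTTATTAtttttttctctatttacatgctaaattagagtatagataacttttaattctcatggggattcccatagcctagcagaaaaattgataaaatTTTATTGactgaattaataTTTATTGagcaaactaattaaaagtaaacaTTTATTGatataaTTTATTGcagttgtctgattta
iHoxc10-specific site 2, chr2:19784865-19785064: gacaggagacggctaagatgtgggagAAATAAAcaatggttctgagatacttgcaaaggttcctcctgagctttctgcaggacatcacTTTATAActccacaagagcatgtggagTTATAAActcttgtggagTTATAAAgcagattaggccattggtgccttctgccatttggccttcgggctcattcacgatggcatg

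Both classes were counted first. iHoxc9-specific domains made up 13.0% (12.7 to 13.4) of the iHoxc9 domains of 150 bp or wider, and iHoxc10-specific domains made up 15.7% (15.3 to 16.1) of the iHoxc10 domains. The classes had nearly the same width, with a median of 238 bp in iHoxc9-specific and 239 bp in iHoxc10-specific domains, and both were narrower than shared domains (medians of 431 and 476 bp). The share of specific domains fell with width in both lists. From 200 to under 300 bp it was 26.2% for iHoxc9 and 33.6% for iHoxc10, from 500 to under 1000 bp it was 2.13% and 2.91%, and among those of 1000 bp or more there were 2 and 9 specific domains. On the narrow side of the limit (140 to under 150 bp), 32.8% of the iHoxc9 domains and 34.4% of the iHoxc10 domains overlapped nothing in the other list, and on the wide side (150 to under 160 bp) the shares were 26.3% and 32.3%. Line-specific domains were thus mostly narrow.

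The lists themselves differed in length and width, which bears on every count. The iHoxc9 list had 63504 domains, 30.2% of them under 50 bp, and the iHoxc10 list had 56232, 15.7% of them under 50 bp. In 29662 pairs in which 1 domain of each list overlapped the other and no further domain, the iHoxc10 domain was the wider in 61.2% and the iHoxc9 domain in 38.5%. When both lists were cut to their 31062 widest domains, 8108 (26.1%) of the iHoxc9 and 8476 (27.3%) of the iHoxc10 domains overlapped no domain of the other cut list, so the classes became closer in size. Of these, 4053 and 4418 also overlapped nothing in the other full list. The part of list length and calling in the differences below was not tested beyond repeating them in lists of equal length.

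**Figure D1:**
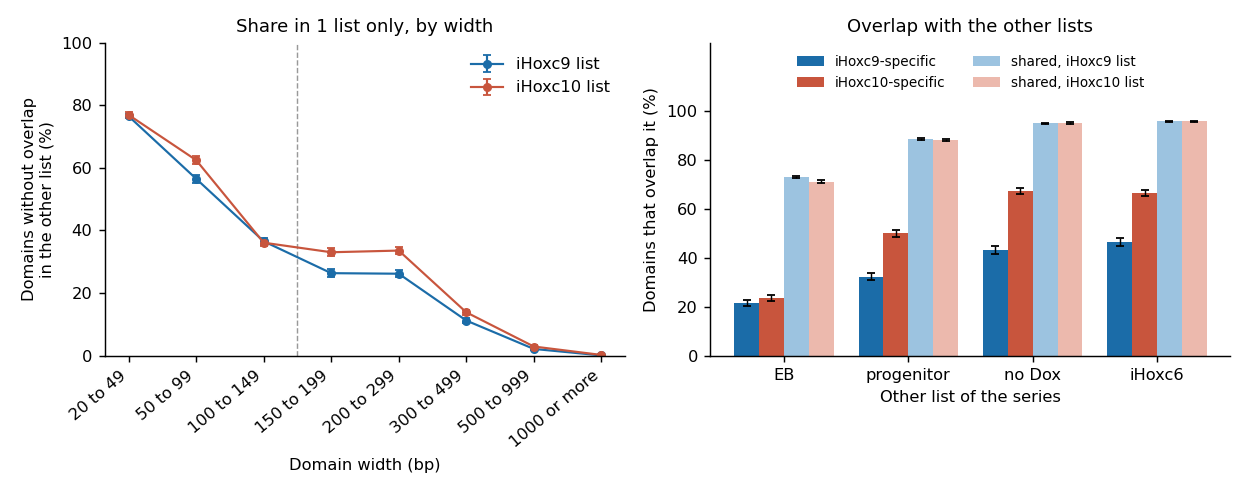
The left plot gives the share of domains of each list that overlapped nothing in the other list, by domain width in bp with the 150 bp limit dashed, and the right plot the share of specific and shared domains that overlapped the EB, progenitor, no Dox and iHoxc6 lists, all in percent with 95% Wilson intervals. Specific domains were rare above 500 bp in both lists, and progenitors held 50.02% of the iHoxc10-specific and 32.2% of the iHoxc9-specific domains.

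Comparison with the other lists addressed whether the line-specific domains had been open before or without induction. Of the iHoxc10-specific domains 50.02% (48.7 to 51.4) overlapped a progenitor domain, against 32.2% (30.8 to 33.7) of the iHoxc9-specific domains, a difference of -17.8 percentage points (-19.7 to -15.8) for iHoxc9 minus iHoxc10. The no Dox list held 67.4% of the iHoxc10-specific and 43.1% of the iHoxc9-specific domains, and the iHoxc6 list held 66.7% and 46.4%. In EBs, before patterning, the shares lay closer together (23.5% and 21.4%). Domains that were in progenitors, no Dox and iHoxc6 neurons alike, and so were missing from a single induced line among day 2 and day 4 lists, made up 39.5% of the iHoxc10-specific class (2095 domains, absent from iHoxc9) and 22.6% of the iHoxc9-specific class (918 domains, absent from iHoxc10). In all, 3905 of the 5310 iHoxc10-specific and 2006 of the 4053 iHoxc9-specific domains were listed in progenitors or no Dox neurons, which carry neither transgene.

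The reverse held for domains that appeared in neither the progenitor nor the no Dox list, called new here. New domains made up 50.5% (49.0 to 52.0) of the iHoxc9-specific class (2047) and 26.5% (25.3 to 27.7) of the iHoxc10-specific class (1405), a difference of 24.0 points (22.1 to 26.0). Among shared domains 3.98% of the iHoxc9 list and 3.74% of the iHoxc10 list were new. Domains that none of the 4 other lists held numbered 1598 (39.4%) and 950 (17.9%). In the widest specific domains, of 500 bp or more, the contrast with progenitors was wider, with 27.3% of the iHoxc9-specific and 73.1% of the iHoxc10-specific domains held. In lists of equal length it was narrower, with 53.8% and 62.0% held by progenitors and 30.9% and 17.2% new, in the same direction. In these lists the order in EBs turned, with 40.5% of the iHoxc9-specific and 35.3% of the iHoxc10-specific domains held. Among the 10000 widest domains of each list the progenitor difference was -6.42 points (-8.20 to -4.66).

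Domains were then placed relative to genes (GENCODE M21), with 1 TSS per gene, its outermost annotated start. iHoxc9-specific domains lay farther from genes. Their median distance to the nearest TSS of a protein-coding gene was 98.3 kb, against 50.5 kb for iHoxc10-specific domains and 7.10 and 8.55 kb for the shared domains of the iHoxc9 and iHoxc10 lists. Beyond 100 kb from any such TSS lay 49.5% of the iHoxc9-specific and 33.7% of the iHoxc10-specific domains, a difference of 15.8 points (13.8 to 17.8), and beyond 500 kb the shares were 11.7% and 4.82%. The intergenic share was 53.4% and 46.4%, the intron share 38.6% and 41.9%, and the exon share 3.50% and 5.22%. Promoters, taken as TSS ± 1 kb, held 183 iHoxc9-specific domains (4.52%) and 345 iHoxc10-specific domains (6.50%), a difference of -1.98 points (-2.90 to -1.05). Among the 10000 widest domains of each list the promoter difference turned to 2.70 points, with an interval from -0.243 to 5.63 that included 0.

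New and held domains were also placed separately. Among new domains 59.1% of the iHoxc9-specific and 37.4% of the iHoxc10-specific class lay beyond 100 kb from a TSS, a difference of 21.7 points (18.4 to 25.0), and the median distances were 134 and 63.9 kb. Among domains held by progenitors or no Dox neurons the medians were 61.2 and 46.7 kb, and the promoter shares, 8.08% and 7.96%, differed by 0.112 points (-1.32 to 1.62). The contrast in distance was thus larger among new domains, although the difference between the subsets was not tested. In lists of equal length 40.2% and 31.2% lay beyond 100 kb, a difference of 9.1 points (7.6 to 10.5). By chromosome, the iHoxc9-specific share ranged from 7.14% of the domains on chromosome 11 (129 of 1807) to 17.2% on chromosome 14, leaving out Y. On chromosome 11 the iHoxc10-specific share was 17.4% (395 of 2273), against 15.7% over all chromosomes.

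**Figure D2:**
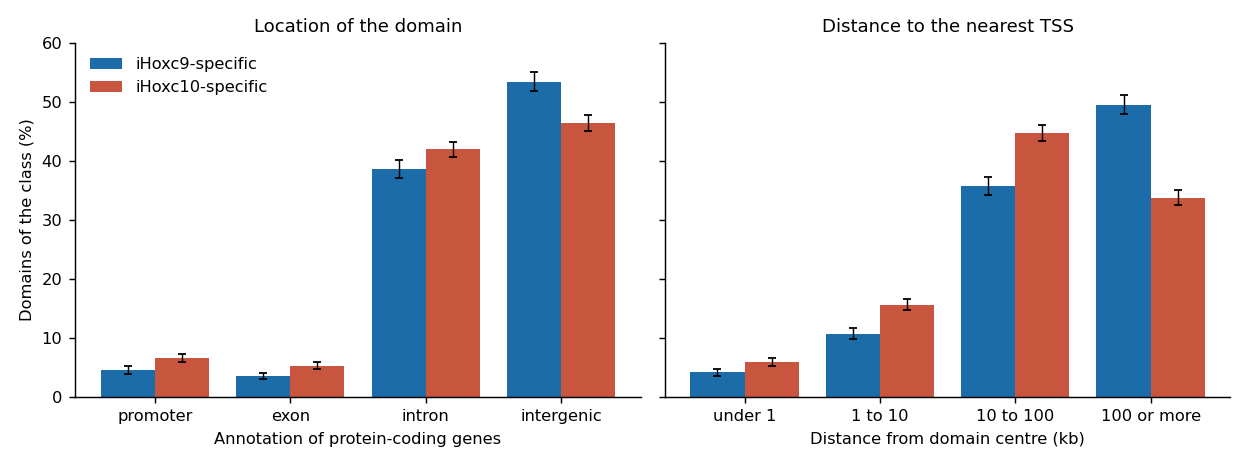
Bars give the share of iHoxc9-specific and iHoxc10-specific domains, in percent of the class with 95% Wilson intervals, by annotation of protein-coding genes and by distance of the domain centre from the nearest TSS in kb. At 100 kb or more lay 49.5% of the iHoxc9-specific and 33.7% of the iHoxc10-specific domains.

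Base composition moved with class. The median GC content of the central 200 bp was 44% in iHoxc9-specific and 48.5% in iHoxc10-specific domains, and 42% and 47.5% among new domains. Shared domains had 57.5% and 56.5%. Because the posterior consensus is AT-rich, its shares are given beside a composition control, which reads the same heptamers backwards. They are also given after weighting both classes to equal GC content in 20 bins. Intervals of the weighted differences are symmetric about the difference and are not Newcombe intervals.

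Posterior Hox strings differed in frequency between the classes. The central 200 bp held at least 1 match in 57.6% of the iHoxc9-specific domains (2335 of 4053) and 29.2% of the iHoxc10-specific domains (1550 of 5310), a difference of 28.4 points (26.5 to 30.4). Shared domains held a match in 20.7% (iHoxc9 list) and 20.2% (iHoxc10 list). The control string was found in 32.9% and 25.1% of the specific domains, a difference of 7.8 points. With GC content weighted, the posterior difference was 18.02 points (16.1 to 19.9) and that of the control -1.51 points (-3.23 to 0.221). At equal GC content the excess of the consensus in iHoxc9-specific domains was therefore not matched by the same letters in reverse order. In lists of equal length the unweighted difference was 16.4 points, and among the 10000 widest domains of each list it was 3.93 points (1.49 to 6.37).

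The contrast was wider in new than in held domains. Of the new domains, 75.4% of the iHoxc9-specific class (1544 of 2047) and 39.7% of the iHoxc10-specific class (558 of 1405) held a match, a difference of 35.7 points (32.5 to 38.8), or 24.1 points (20.7 to 27.5) with GC content weighted. In domains that progenitors or no Dox neurons held, the shares were 39.4% and 25.4% (14.0 points, 11.5 to 16.6). Where progenitors, no Dox and iHoxc6 neurons all held the domain, they were 28.0% and 22.7%, and where none of the 4 other lists did, 78.0% and 41.8%. By width, the difference over all specific domains was 24.2 points from 150 to under 200 bp, 28.9 from 200 to under 300 bp, 32.9 from 300 to under 500 bp and 33.3 at 500 bp or more. Among new domains it was 34.8, 34.0, 39.1 and 33.9 points in the same order, the last from 76 of 97 and 12 of 27 domains. In lists of equal length the new domains held a match in 74.4% and 44.0%, a difference of 30.4 points (27.3 to 33.4).

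The contrast was seen at each location. In introns the posterior consensus was found in 59.8% of the iHoxc9-specific and 29.5% of the iHoxc10-specific domains, in intergenic DNA in 61.4% and 33.0%, beyond 100 kb from a TSS in 66.0% and 37.3%, and within 10 kb of one in 34.7% and 18.5%. At promoters the shares were lower in both classes, 18.6% and 12.2%, with a difference of 6.41 points (0.106 to 13.4).

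**Figure D3:**
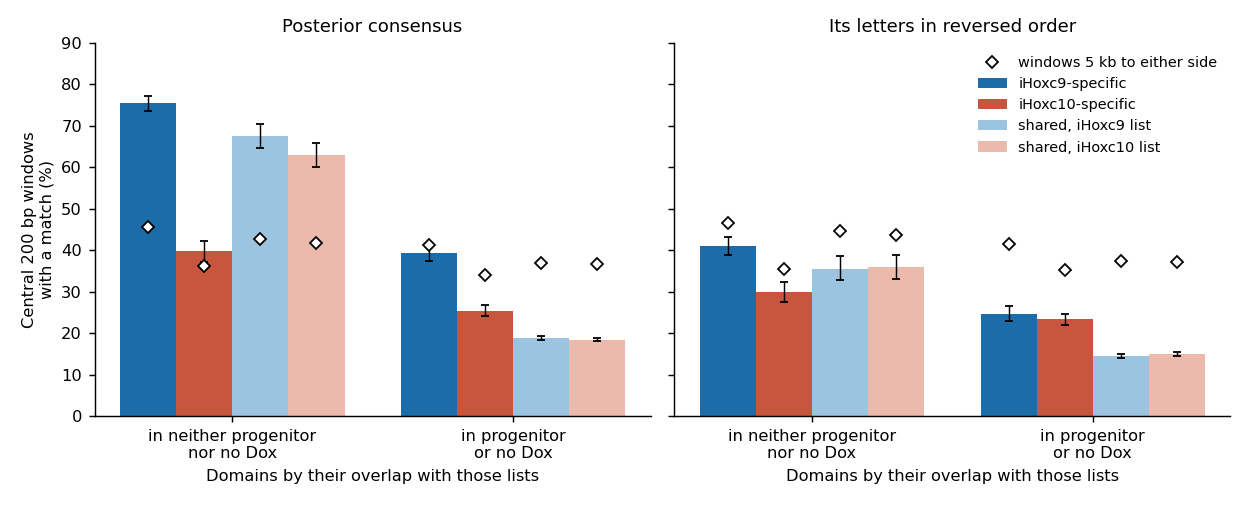
Bars give the share of central 200 bp windows with a match, in percent with 95% Wilson intervals, for the posterior consensus and its reversed control, in specific and shared domains that were new or that progenitors or no Dox neurons held, and diamonds give windows 5 kb to either side. New iHoxc9-specific domains reached 75.4% and new iHoxc10-specific domains 39.7%, while the control stood at 41.0% and 29.8%.

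Windows 5 kb to either side gave a local background. Around new iHoxc9-specific domains 45.7% of these windows held a posterior match, 29.7 points (27.3 to 32.1) fewer than the domains. Around new iHoxc10-specific domains they held a match in 36.1%, 3.6 points (0.5 to 6.8) fewer than the domains. New domains that both lines shared resembled the iHoxc9-specific ones in this respect, with a match in 67.6% (iHoxc9) and 63.0% (iHoxc10). Within the iHoxc10 list, new specific domains thus held a match less often than new shared ones, by -23.3 points (-27.1 to -19.4), whereas within the iHoxc9 list new specific domains exceeded new shared ones by 7.86 points (4.53 to 11.2). The reversed control moved in the same directions, by -6.17 points (-9.91 to -2.43) and 5.44 points (1.85 to 8.97). With GC content weighted over the 4 classes, the posterior shares of new specific and new shared domains were 46.0% and 64.6% in the iHoxc10 list and 70.4% and 68.0% in the iHoxc9 list, so little of the iHoxc9 excess remained.

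The position of the matches was followed across 4 kb. In new iHoxc9-specific domains the density of posterior matches was 7.06 per kb in the central 200 bp and 3.86 per kb beyond 1500 bp from the centre, a ratio of 1.83. In new iHoxc10-specific domains it was 2.85 and 2.90 per kb, a ratio of 0.984, and no central peak was seen. The shared new domains had ratios of 1.76 and 1.67. The reversed control was depleted at the centre in both specific classes, with ratios of 0.691 and 0.726, so the flat profile of the iHoxc10-specific class lay above that of its control.

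**Figure D4:**
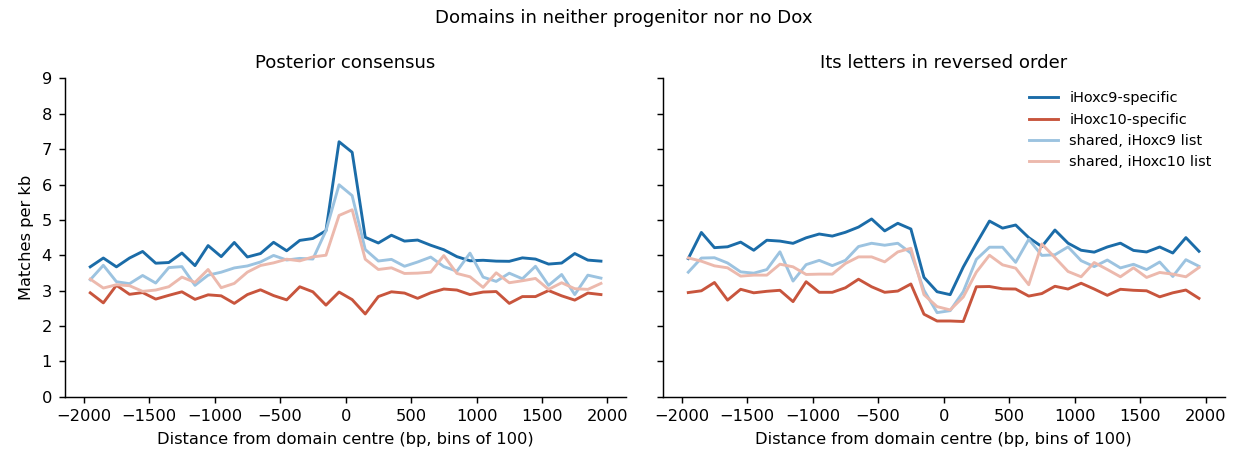
Posterior consensus matches and reversed control matches per kb, in bins of 100 bp, against the distance from the domain centre in bp, for new specific and new shared domains of both lists. The iHoxc9-specific and shared classes peak at the centre (centre to outer ratios of 1.83, 1.76 and 1.67), and the iHoxc10-specific class does not (0.984).

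New iHoxc9-specific domains often held several matches. At least 2 were found in 40.01% of them and in 11.5% of the new iHoxc10-specific domains, a difference of 28.5 points (25.7 to 31.1), and at least 3 in 16.6% and 3.35%. The mean number of matches per window was 1.39 and 0.553.

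Not every posterior heptamer contributed alike. Among new domains CCATAAA was found in 19.1% of the iHoxc9-specific and 5.8% of the iHoxc10-specific windows, a ratio of 3.32. The ratio was 2.94 for ACATAAA (15.5% and 5.3%) and 2.84 for TCATAAA (17.8% and 6.3%), so the 3 heptamers with C directly before the core led the order. They were followed by TAATAAA with 2.68 and then CAATAAA with 2.54. The lowest were TTATAAA with 1.51 and then AAATAAA with 1.49. Read backwards the heptamers gave ratios from 1.09 to 1.83, leaving out AAATAAA, which reads the same backwards.

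The make-up of the matches differed in the same way, which does not depend on how many matches a class holds. CCATAAA made up 15.4% of the 2837 posterior matches in new iHoxc9-specific windows and 11.1% of the 777 in new iHoxc10-specific windows, a difference of 4.30 points (1.58 to 6.74). The shares of TCATAAA were 14.2% and 11.5%, and those of ACATAAA 12.2% and 9.52%, with intervals that lay just above 0. AAATAAA made up 10.9% and 17.9%, a difference of -6.96 points (-10.0 to -4.16), and TTATAAA 5.25% and 8.11%. The other 4 heptamers had intervals that included 0. Several matches in a window share that window, so these intervals are too narrow. Of the base that follows the core, ATAAAA had the highest ratio (48.7% and 20.1% of new windows, 2.42) and ATAAAG the lowest (23.6% and 13.7%, 1.73). The heptamers are visible in the printed sites, where all 5 matches of the first iHoxc10-specific site have A directly before the core and 3 of the 7 in the first iHoxc9-specific site have C.

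Strings of other Hox groups and of cofactors differed by fewer percentage points than the posterior consensus. The central Hox consensus, TAATNN with A, G or T and then A or G, was found in 55.1% and 45.0% of the specific windows, but with GC content weighted in 49.0% and 48.6%, a difference of 0.369 points (-1.56 to 2.30). Among new domains the weighted difference was 4.40 points (1.01 to 7.79). The string TGATTTAT, a Pbx site joined to the posterior core on the other strand, holds no full heptamer itself and was found in 7.6% of the new iHoxc9-specific and 3.1% of the new iHoxc10-specific windows, a ratio of 2.47 against 1.90 for the posterior consensus. Its weighted difference was 3.53 points (2.06 to 5.01), and windows 5 kb away held it in 1.37% and 0.854%. The Meis string TGACAG was found in 19.2% and 18.5% of all specific windows.

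A few strings were more frequent in the iHoxc10-specific class. AGGTCA, bound by nuclear receptors such as the receptors of retinoic acid, was found in 23.2% of the iHoxc10-specific and 14.3% of the iHoxc9-specific windows, a difference of -8.9 points (-10.5 to -7.4), and in domains held by progenitors or no Dox neurons in 23.5% and 13.1%. ATCGAT, bound by the Onecut factors of motor neurons, was found in 2.9% of the new iHoxc10-specific and 0.7% of the new iHoxc9-specific windows, with a weighted difference of -2.41 points (-3.44 to -1.37). The AGGTCA difference was not weighted for GC content. The Ebf string CCCNNGGG (9.64% of iHoxc10-specific and 6.59% of iHoxc9-specific windows) and the GC box GGGCGG (9.92% and 4.91%) leaned the same way. With GC content weighted, their differences were -0.731 points (-1.89 to 0.424) and -1.55 points (-2.58 to -0.518). Other strings leaned towards the iHoxc9-specific class. CATCTG, an E-box bound by proneural factors, was found in 23.0% of the iHoxc9-specific and 18.3% of the iHoxc10-specific windows, a difference of 4.63 points (2.97 to 6.30), and its weighted difference in new domains was 6.83 points (4.03 to 9.63). For the E-box CAGCTG the difference was 0.852 points (-0.704 to 2.42), but weighted in new domains it was 6.85 points (4.30 to 9.39). The Oct string ATGCAAAT was rare, with 61 and 12 new windows (2.98% and 0.854%, a ratio of 3.49). Intervals of the difference between the classes included 0 for the CTCF string CCACNAGG (3.5% and 3.6%) and the AP-1 string TGANTCA (6.7% and 6.5%). A match to a string is no evidence of binding.

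Each domain was then assigned to the protein-coding gene with the nearest TSS, which is a position and not a target. An intron or exon named below can belong to another protein-coding gene than the one with the nearest TSS. Of 21938 genes 2603 (11.9%) had at least 1 iHoxc9-specific domain and 3473 (15.8%) at least 1 iHoxc10-specific domain. Genes alone in a wide stretch of DNA collect more domains: of the 10577 genes with a gap of 100 kb or more between the neighbouring TSS, 22.1% and 26.7% had one. In 9 of 11 gene lists chosen for the tissue, iHoxc10-specific domains outnumbered iHoxc9-specific ones. They were equal for ion channels and receptors (12 each), and the type II cadherins were the list with the reverse order. Over all genes the ratio was 5310 to 4053.

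The anterior Hox genes were the clearest case. The 15 Hox genes of groups 1 to 5 had 25 iHoxc10-specific domains, at 11 genes, and 1 iHoxc9-specific domain, nearest to the Hoxc4 TSS. These were 37.9% and 3.33% of the domains that the lists hold at these genes, against 15.7% and 13.0% over all genes. Hoxb2 and Hoxc4 each had 4 iHoxc10-specific domains. The TSS used for Hoxa3 lies between those of Hoxa6 and Hoxa7, and 1 of the 25 domains was assigned to it. Of the 25, progenitors held 19, no Dox neurons 21 and iHoxc6 neurons 21, and 3 were new, so these domains were mostly open before and without induction and absent from the iHoxc9 list. Hoxb2, a hindbrain Hox gene, had domains of 188 to 889 bp within 4.78 kb of its TSS, all 4 of them held by progenitors and no Dox neurons.

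Groups 6 to 8 and 9 to 13 had few specific domains. By nearest TSS, Hoxb8 had the only one of groups 6 to 8, and it was iHoxc10-specific. The iHoxc9-specific domain assigned to Hoxc4, however, lies within the annotated span of Hoxc6. In groups 9 to 13, Hoxc9 and Hoxa13 each had 1 iHoxc9-specific domain, and Hoxa9, Hoxc10, Hoxd9 and Hoxd10 each had 1 iHoxc10-specific domain. Inside the 4 Hox clusters as stretches of DNA there were 30 iHoxc10-specific domains (8 in HoxA, 12 in HoxB, 3 in HoxC and 7 in HoxD) and 4 iHoxc9-specific ones (2 in HoxA, 2 in HoxC). The 2 in HoxA were new and nearest to the TSS of genes outside the Hox lists, so the counts by gene leave them out. Of the 30, 7 held a posterior match (23.3%, against 29.2% of all iHoxc10-specific domains). Of the 4, 3 did, against 57.6% of all iHoxc9-specific domains. Domains of the iHoxc9 list covered 2.88% of HoxB and 4.68% of HoxD, those of the iHoxc10 list 8.30% and 11.2%, those of progenitors 6.30% and 10.2%, and those of no Dox neurons 10.1% and 11.6%. In each of the 4 clusters the order of coverage was no Dox, iHoxc10, progenitors and iHoxc9. Over the whole genome the lists covered 29.7, 20.1, 25.7 and 17.8 Mb in that order, so the iHoxc9 list was the smallest in both, while the iHoxc10 list exceeded progenitors in the clusters and not overall. The iHoxc9-specific domain at Hoxc4 is shown, chosen after its values were seen, because it is new inside a cluster where the class has few members. It is 266 bp wide, lies 8.87 kb upstream of the Hoxc4 TSS and outside that gene, overlaps an iHoxc6 domain, and holds 5 posterior matches. The intron it lies in is within the annotated spans of Hoxc5 and Hoxc6, and the label below names only the gene with the nearest TSS. The iHoxc6 line carries a Hoxc6 transgene, and whether this bears on the overlap was not tested.
iHoxc9-specific site in Hoxc4, chr15:103009963-103010162: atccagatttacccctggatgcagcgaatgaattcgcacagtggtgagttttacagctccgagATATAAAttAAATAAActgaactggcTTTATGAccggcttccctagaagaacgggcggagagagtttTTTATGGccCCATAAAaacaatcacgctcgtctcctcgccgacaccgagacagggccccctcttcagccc

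The domains at Hoxc9 and Hoxc10 need care, since each line carries an added copy of its own gene. The iHoxc10-specific domain at Hoxc10, chr15:102966853-102967325, is 473 bp wide. The iHoxc9-specific domain at Hoxc9, chr15:102981652-102982120, is 469 bp wide, lies on an exon and overlaps domains of the EB, progenitor, no Dox and iHoxc6 lists. Reads of the transgene and of the native coding exons cannot be told apart in these lists.

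TALE cofactors showed the same order as the anterior Hox genes. At 9 genes there were 34 iHoxc10-specific and 6 iHoxc9-specific domains, 32.1% and 8.70% of their domains, against 15.7% and 13.0% over all genes. Meis1 (chr11:18879817-19018985) had 14 iHoxc10-specific and 1 iHoxc9-specific domain, and Pbx3 had 3 and 0. Of the 14 at Meis1, which lay 11.1 to 490 kb from its TSS, iHoxc6 neurons held 10, no Dox neurons 8 and progenitors 4. A posterior match was held by 6 of them, against 29.2% of all iHoxc10-specific domains. All 6 iHoxc9-specific domains of the list were new, and 5 of them held a posterior match. Of all iHoxc9-specific domains 50.5% were new, and 75.4% of the new ones held a match.

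Neural progenitor genes had 54 iHoxc10-specific and 10 iHoxc9-specific domains at 18 genes (31.4% and 8.47% of their domains, against 15.7% and 13.0% over all genes). Irx3 (chr8:91798525-91802067), an Iroquois homeodomain factor of neural tube progenitors, had 17 and 0, the highest number of iHoxc10-specific domains of any gene. They spanned 3.42 to 264 kb from its TSS, 11 in intergenic DNA and 6 in introns of any protein-coding gene. Progenitors held 7, no Dox neurons 10 and iHoxc6 neurons 10 of them, while 4 were in none of the other lists. The iHoxc10 list held 24 domains of 150 bp or wider at Irx3 and the iHoxc9 list 6. The neural stem cell factor Sox2 had 8 iHoxc10-specific domains, all held by no Dox and iHoxc6 neurons, and 1 iHoxc9-specific domain. Sox9, a factor of glial and stem cell programmes, had 8 and 0. On the other side Dbx1, a determinant of ventral interneuron progenitors, had 3 iHoxc9-specific and 2 iHoxc10-specific domains, and Gli2 and Gli3, effectors of Hedgehog signalling, had 2 each that were iHoxc9-specific, against 1 and 0. Of the 54 domains, 29 were held by progenitors and 14 (25.9%) were new. These counts were near the class-wide shares of 50.02% held by progenitors and 26.5% new.

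Motor neuron genes were less one-sided. The identity list (18 genes) had 33 iHoxc10-specific and 16 iHoxc9-specific domains, 25.0% and 17.6% of its domains, and 7 and 8 of them were new. Isl1, the LIM homeodomain factor that starts motor neuron identity, had 6 iHoxc9-specific and 3 iHoxc10-specific domains, and 5 of the 6 held a posterior match against 1 of the 3. Ebf3 had 1 and 6, the choline transporter gene Slc5a7 0 and 3, Ebf1 2 and 2, and Lhx4 2 and 1. For motor columns and pools (18 genes) there were 41 iHoxc10-specific and 19 iHoxc9-specific domains, 26.5% and 16.8% of the list's domains. Over all genes the shares were 15.7% and 13.0%, and over genes with gaps of 100 kb or more 17.9% and 15.99%. Gfra1, the GDNF co-receptor, had 5 and 2, Nr2f2 6 and 3, and Epha4, which steers limb-innervating axons and was also in the axon guidance list, 4 and 3. The 3 iHoxc9-specific domains at Epha4 were in none of the other lists, whereas no Dox neurons held 3 of its 4 iHoxc10-specific domains. At Foxp1, the Hox partner of limb-innervating and preganglionic motor neurons, there were 4 iHoxc10-specific and 2 iHoxc9-specific domains.

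Spinal interneuron genes (16) had 17 iHoxc10-specific domains at 4 genes, 8 at Pax2, 6 at Lmx1b and 2 at Lbx1 among them, and 8 iHoxc9-specific domains at 5 genes, 3 at Foxp2, 2 at Sim1 and 1 at En1 among them. These were 28.3% and 17.4% of the list's domains, against 15.7% and 13.0% over all genes. The 25% and 31.3% of its genes with such a domain compare with 26.7% and 22.1% of genes with wide gaps. Pax2, a factor of inhibitory interneurons, and Foxp2 and Sim1, factors of ventral interneurons, had domains of a single class, and Lmx1b, a factor of dorsal excitatory interneurons, had 6 and 1.

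Axon guidance genes (36) had 75 iHoxc10-specific and 41 iHoxc9-specific domains. These were 21.5% and 13.9% of their domains, the latter close to the 13.0% over all genes. Of the 41 iHoxc9-specific domains 53.7% were new and of the 75 iHoxc10-specific ones 24.0%, near the class-wide 50.5% and 26.5%. A posterior match was held by 32 of the 41 (78.0%) and 31 of the 75 (41.3%), against 57.6% and 29.2% in the classes as a whole. Robo1 had 6 iHoxc9-specific and 3 iHoxc10-specific domains, Epha5 4 and 1, and the semaphorin gene Sema3d 3 and 0. The order was the other way for Robo2 (1 and 6), Plxna4 (0 and 6) and Nrp2 (0 and 7), which encode receptors for Slits and semaphorins. All 7 domains at Nrp2 were held by progenitors, no Dox and iHoxc6 neurons. They lay in introns of protein-coding genes, up to 494 kb from its TSS, so not all of these introns are its own.

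Type II cadherins, adhesion proteins that sort motor neurons into pools, had 42 iHoxc9-specific and 24 iHoxc10-specific domains at 13 genes, 34.7% and 25.0% of their domains. The shares were 13.0% and 15.7% over all genes, and 15.99% and 17.9% over genes with gaps of 100 kb or more. Cdh6 had 9 and 2, Cdh8 8 and 3, Cdh20 6 and 2, and Cdh11 7 and 10. Of the 42, 26 were new and 26 held a posterior match, and of the 24, 5 were new and 6 held a match. Over all iHoxc9-specific domains 50.5% were new and 57.6% held a match, against 61.9% for both at the cadherins. Over all iHoxc10-specific domains the shares were 26.5% and 29.2%, against 20.8% and 25.0% at the cadherins. At Cdh8, 6 of the 8 iHoxc9-specific domains were in none of the other lists. These genes lie in wide stretches of DNA, with a median gap of 3721 kb between neighbouring TSS, and both classes are common in them. Ion channel and receptor genes (20) had 12 domains of each class, 19.0% (iHoxc9) and 18.75% (iHoxc10) of their domains. They were led by Grik2 with 4 and 1 and Kcnd2 with 3 and 0.

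**Figure D5:**
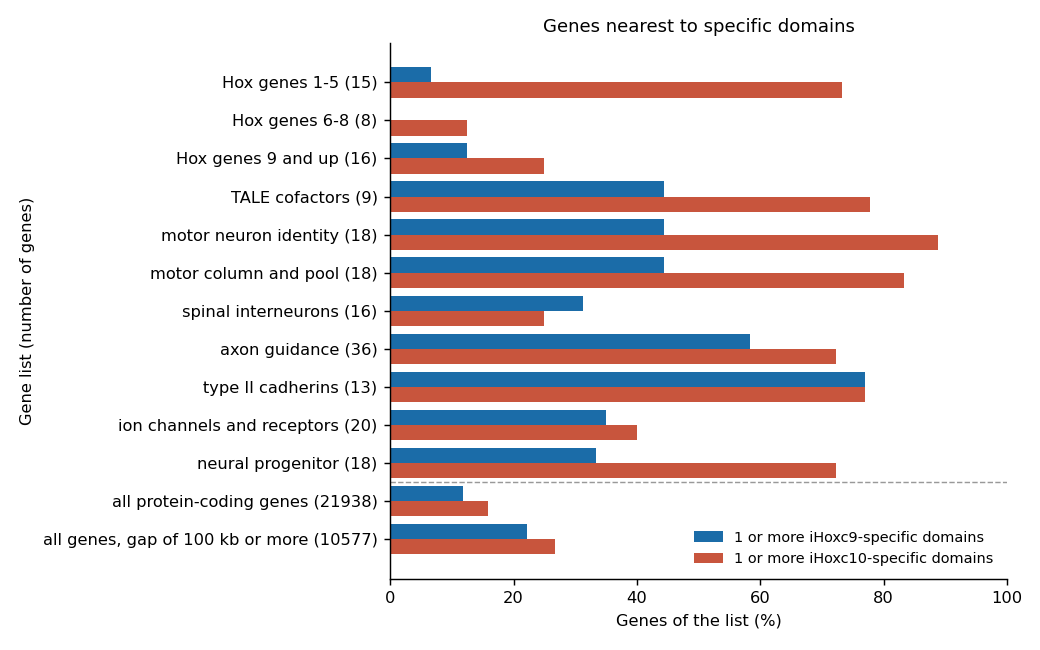
Bars give the share of the genes in each list, in percent, that were nearest to at least 1 iHoxc9-specific or iHoxc10-specific domain, with the number of genes in brackets and all protein-coding genes below the dashed line. Hox genes of groups 1 to 5 stand at 6.67% and 73.3%, type II cadherins at 76.9% for both classes, and all genes at 11.9% and 15.8%.

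Genes with the most specific domains were named whatever their function. For iHoxc9 they were Adgrl2 (chr3:148815583-148990555), a latrophilin adhesion receptor (13 iHoxc9-specific and 4 iHoxc10-specific domains), Zfp386 (11 and 4), the activin receptor gene Acvr2a (9 and 2), Cdh6 (9 and 2), the guidance protein gene Flrt2 (9 and 1), Sel1l (9 and 3), Cdh8 (8 and 3), Il5ra (8 and 1), Lrrn1 (8 and 2) and Olfm4 (8 and 3). All 10 had gaps of at least 1091 kb between neighbouring TSS. The 9 at Sel1l lay 570 to 1899 kb from its TSS, and all 9 were new and held a posterior match. At Zfp386, in contrast, EBs held 8 of the 11, and 2 were new.

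For iHoxc10 the genes included Irx3, Meis1, Zfp608 (13 iHoxc10-specific and 1 iHoxc9-specific domain), Cdh11, the POU factor gene Pou3f3 (9 and 3), the Groucho co-repressor gene Tle3 (9 and 0), Zfhx3 (9 and 1), 5530401A14Rik (8 and 1) and Auts2 (8 and 2). These genes, too, had gaps of at least 1044 kb between neighbouring TSS. At Zfp608 no Dox and iHoxc6 neurons each held 10 of the 13 and progenitors 9. At Zfhx3 all 9 lay in introns, and 5 of them held a posterior match.

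Markers served as a check of the labelled cells. Promoters of the motor neuron genes Isl1, Mnx1, Lhx3 and Slc18a3 held at least 1 domain in both lists. At Lhx3 the iHoxc10 domain counted only 88 bp. The promoter of Chat held 2 domains in iHoxc10 and 0 in iHoxc9. Its promoter window overlaps that of Slc18a3, and in iHoxc10 both genes had 2 domains with 621 bp, so they are not separate markers. Promoters of Pou5f1, Nanog, Sox10, Meox1, Sox17 and Gata4, markers of pluripotent, neural crest, mesoderm and endoderm cells, held none in either list. Foxd3 had a domain of 47 bp in iHoxc9. The mesoderm gene Tbx6 had 1 domain in each list, with 356 bp in iHoxc9 and 873 bp in iHoxc10. The share of other cells in these cultures was not measured.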

How the data were processed

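ATAC-seq of 12 samples in 6 groups was used. The authors aligned their read pairs with Bowtie2 (mm10, GRCm38) and called domains with DomainFinder, as the study's methods state. The submitters' processing notes name Bowtie2 2.2.2 and Picard 2.8.2. The deposited lists, 1 per group from both replicates, hold start and end coordinates in bp and no height, count or p-value. The no Dox list has 6 columns, 3 of them constant, and a name with another day than its label and a tag that reads like a p-value threshold, so its calling settings are uncertain, and both new and held domains rest on it. The caller's threshold for the other lists is not given in the sources used here. Starts were read as 0-based and are printed counting from 1, which is uncertain by 1 bp.

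Domains were compared with Python 3.11.15, NumPy 2.4.6 and SciPy 1.17.1, genes came from GENCODE M21, and sequence came from the RefSeq GRCm38 p6 assembly. Plots used Matplotlib 3.10.9. Motifs were counted on both strands in the central 200 bp, and windows that held unknown bases were left out. The code was tested on simulated data (19 checks, 0 differed). With 1 list per group no test across samples could be run. Classes, gene lists, motifs and alternatives were chosen with earlier results of these data known. Named were, in each of 11 gene lists, up to 3 genes per class with the most specific domains, and the 10 genes per class with the most overall; genes outside this rule were named after their values were seen. Sites were the 3 per class with the most posterior matches among new domains, passing over chromosome 18. A few genes and sites that these rules pick are not reported here.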

Additional observations from a re-analysis of the deposited data

Results flagged for a closer look

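Outside the chromosomes compared, the iHoxc9 list held 1 mitochondrial domain and the iHoxc10 list held 1, while the no Dox list held 0. The EB, progenitor and iHoxc6 lists also held 1 each, so the no Dox list was the one that differed.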

How the results depend on the processing

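The counts of iHoxc9-specific and iHoxc10-specific domains (4053 and 5310) moved to 6749 and 8005 with a minimum width of 100 bp, to 1090 and 1439 with 300 bp, to 8108 and 8476 in lists of equal length, and to 2153 and 2217 among the 10000 widest domains. They stayed within 1.5 times when domains of the other list within 500 bp also counted as overlap, or when overlap had to reach 50% of the narrower domain. The iHoxc10-specific class was the larger under each of these. The posterior difference (28.4 points) kept its direction under every alternative. It was 20.96 at 100 bp, 33.0 at 300 bp, 16.4 at equal length, 3.93 among the 10000 widest, 30.4 with the 500 bp margin, 25.9 at 50% overlap, 25.0 with ATAAA, 21.8 in the central 100 bp, 18.02 with GC content weighted, 35.7 in new domains and, added after seeing the data, 14.0 in held domains. The progenitor difference (-17.8 points) also kept its direction, at -11.8 for 100 bp, -29.8 for 300 bp, -8.21 at equal length, -6.42 among the 10000 widest, -15.4 at 50% overlap and, added after seeing the data, -9.56 in domains without iHoxc6 overlap. The promoter difference (-1.98 points) was -3.06 at equal length and -4.55 for TSS ± 5 kb, and turned to 2.70 among the 10000 widest, where 45.0% of the iHoxc9 and 42.3% of the iHoxc10 domains lay at promoters. The cause of that change was not tested.

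No paired analysis was possible because both replicates were merged into 1 list per group, and leaving out a replicate was not possible either. Depth and the signal of single domains are unknown, so absence from a list does not show closed chromatin. Factor, cell line and list length cannot be told apart.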
